A study of Mus musculus with 3 samples.

Results

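The Ms4a gene cluster was examined here as 8 genes of mouse chromosome 19, chosen by symbol (Ms4a4a, Ms4a4c, Ms4a6b, Ms4a6c, Ms4a6d, Ms4a7, Ms4a8a and Ms4a14) out of 55536 annotated gene rows, of which 22028 are protein-coding. Ms4a proteins are small membrane proteins whose chain crosses the membrane several times, and many act beside immune receptors. The best known relatives are Ms4a1, which encodes the B cell antigen CD20, and Ms4a2, which encodes the beta chain of the high-affinity IgE receptor of mast cells. Several other members are expressed in monocytes, macrophages and microglia, where Ms4a7 is used as a marker of resident macrophages and the Ms4a4a protein is known as a surface protein that associates with the receptor Dectin-1.

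The RNA came from the chromatin fraction of bone-marrow-derived macrophages of C57BL/6J mice, so that it holds transcripts still being made or processed at the gene. All cells had received 100 ng/ml of Lipid A, a ligand of Toll-like receptor 4, for 12 h, had been kept without it for 12 h, and had then received the same dose for 60 min. The 3 libraries form 1 group, without untreated cells and without cells given Lipid A once. They were made from 1000, 250 and 500 ng of RNA (replicates 1, 2 and 3), depleted of ribosomal RNA and, by the labels, sized to fragments of 250 to 400 bases. The quantified fragments were shorter in replicate 1. The effective length, which is the transcript length less the typical fragment length, was 3917, 3796 and 3815 bases for the 4065-base Ms4a14 transcript. The labels give them separate biosamples with the same donor entry, give neither age nor sex, and do not say whether animals or cultures were separate, so p-values measure the spread between these libraries, which may be technical.

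Sequencing depth was 12602702, 17222239 and 17042691 counts over all genes in replicates 1, 2 and 3, so that a floor of 3 counts corresponds to 0.238, 0.174 and 0.176 CPM (counts scaled to library depth). All 10 macrophage markers examined were detected, led by Adgre1 at 441 ± 140 TPM and Msr1 at 314 ± 17.2 (SD, n = 3), 9 of them at 10 TPM or more in every library (TPM, an abundance corrected for transcript length and scaled to the same total in each library). Replicate 2 differed from the others in stromal RNA: 11 fibroblast and stroma markers summed to 5, 49841 and 117 counts in replicates 1, 2 and 3, led by Col1a1 (0, 16804 and 36) and Col1a2 (0, 11612 and 25). B cell markers summed to 90, 152 and 16 counts, nearly all from Cd22 (86, 82 and 13) and Ebf1 (0, 65 and 0), with 5 of 7 undetected. T and NK cell markers summed to 2, 157 and 1 counts, with 5 of 7 undetected and 153 of the counts in replicate 2 from Thy1, which is also on the stroma list. Mast cell markers summed to 76, 56 and 58 counts, led by Hdc (53, 30 and 30) and Kit (19, 13 and 27). Dendritic cell markers summed to 44, 49 and 45 counts. By mean TPM they were led by Zbtb46 (11, 35 and 34 counts) and Ccr7 (13, 4 and 1), while Xcr1 had more counts than Ccr7 (16, 8 and 6). All 10 granulocyte and neutrophil markers, Ngp and Camp among them, were undetected, with at most 4 counts in sum in any library. The part of any of these cell types in the values below was not tested.

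Of the 8 genes, 7 reached 10 TPM in all 3 libraries, against 16.7% of protein-coding genes, and the remaining gene, Ms4a8a, did not rise above the floor in the RSEM-layout tables that these values come from. More than 3 counts in a library were found for the same 7 genes and for 62.8% of protein-coding genes. Together the 8 genes summed to 1131, 976 and 950 TPM (mean 1019 ± 98.3, SD, n = 3), and they held 0.274, 0.180 and 0.202% of all gene counts. In this bulk RNA, a smaller number of expressing cells and less RNA per cell cannot be told apart.

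The detected genes lay side by side. In genome order, the family has 19 genes with a row in the tables (the 8 genes and 11 others), and the 9 with more than 3 counts were consecutive members of the family, from Ms4a14 to Ms4a6d, over 303601 bases (mm10, chr19:11301249-11604849). Among these 9 were 7 of the 8 genes together with Ms4a4b and Ms4a4d, the other two detected relatives. The 8 family genes below that stretch, Ms4a8a among them, and the 2 above it, Ms4a2 and Ms4a3, were undetected. These calls rest on the RSEM-layout tables. The kallisto-layout tables, a second quantification deposited for the same libraries, gave Ms4a12 3.26, 7.70 and 5.70 TPM, where the RSEM-layout tables gave 0 counts. They also gave means of 0.973 TPM for Ms4a1 and 0.846 TPM for Ms4a5, and gave Ms4a8a 10.2 and 10.1 counts in replicates 2 and 3.

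**Figure D1:**
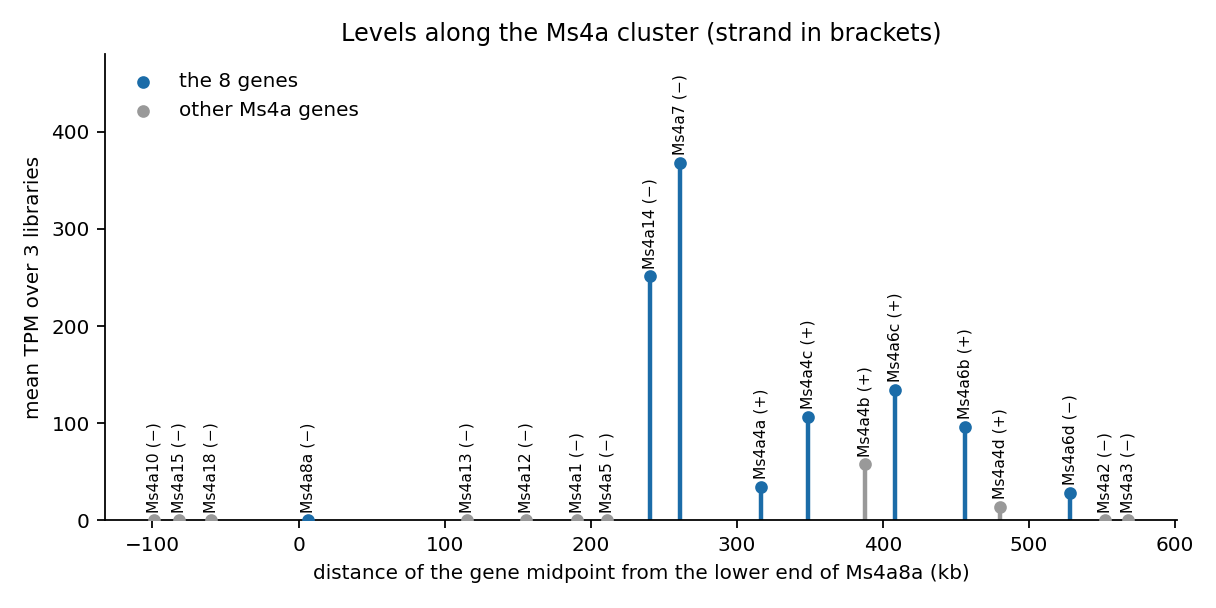
Mean TPM over 3 libraries (vertical axis, linear) of the Ms4a genes against the distance of each gene's midpoint from the lower end of Ms4a8a in kb (horizontal axis), with the 8 genes in blue and other family genes in grey. Levels above the floor form 1 stretch from Ms4a14 to Ms4a6d, with the highest values of 368 TPM for Ms4a7 and 251 TPM for its neighbour Ms4a14.

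Ms4a7 and Ms4a14 were the most abundant of the 8 genes and are neighbours on the minus strand, 6584 bases apart. Ms4a7 (ENSMUSG00000024672.11, chr19:11321039-11336146) stood at 371, 356 and 376 TPM in replicates 1, 2 and 3 (368 ± 10.2, SD, n = 3), on 13907, 12760 and 14551 counts. On the RSEM-layout TPM scale its values were nearly the same in each library, and its mean ranked 101 among protein-coding genes. The values of Ms4a7 were less even in kallisto-layout TPM (512, 346 and 387) and in CPM (1103, 741 and 854). Ms4a14 (ENSMUSG00000099398.1, chr19:11301249-11314454) had 229, 241 and 284 TPM (251 ± 28.9), on 13034, 12142 and 15438 counts, and ranked 190. Its annotated coding sequence, of 3696 bases, is longer than those of the other 7 genes, which run from 651 to 870 bases. Ms4a7 was higher than Ms4a14 in every library in both quantifications, and the ranges did not overlap.

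The 250 bases before the annotated starts of these 2 genes are shown because they stand before the most abundant members. They are printed 5′ to 3′ on the minus strand from RefSeq (build GRCm38.p6), and capitals mark a match to the AP-1 letters TGANTCA. Ms4a14 spans chr19:11314455-11314704, the upstream start of Ms4a7 chr19:11336147-11336396 and its downstream start chr19:11334696-11334945.
Ms4a14: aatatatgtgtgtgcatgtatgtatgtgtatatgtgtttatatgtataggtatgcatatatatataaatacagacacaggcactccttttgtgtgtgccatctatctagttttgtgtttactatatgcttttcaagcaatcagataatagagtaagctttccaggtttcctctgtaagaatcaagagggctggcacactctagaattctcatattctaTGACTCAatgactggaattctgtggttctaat
Ms4a7 upstream start: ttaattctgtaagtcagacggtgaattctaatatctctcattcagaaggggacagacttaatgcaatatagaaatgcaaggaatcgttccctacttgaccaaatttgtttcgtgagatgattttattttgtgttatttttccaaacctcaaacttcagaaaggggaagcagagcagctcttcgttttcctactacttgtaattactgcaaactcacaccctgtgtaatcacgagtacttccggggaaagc
Ms4a7 downstream start: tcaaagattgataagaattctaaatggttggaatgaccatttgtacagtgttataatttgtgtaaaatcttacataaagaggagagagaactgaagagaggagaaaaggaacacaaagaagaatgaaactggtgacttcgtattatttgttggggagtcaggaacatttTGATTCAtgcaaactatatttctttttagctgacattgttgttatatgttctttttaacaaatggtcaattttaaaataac
Counted from the start site, the match begins at position -32 in Ms4a14 and at position -81 before the downstream start of Ms4a7. No match lies before the upstream start of Ms4a7, which is the one used by its more abundant models: the downstream-start model Ms4a7-201 had 16.6, 10.4 and 12.8 TPM.

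RefSeq entries matched 7 of the 8 genes with 8 promoters of 300 bases each (250 before to 50 after the start); Ms4a6d had none. On both strands, TGANTCA was found in 3 of the 8, those of Ms4a14, Ms4a7 and Ms4a8a, against 7.808% of all 32851 promoters. The NF-kB motif was found in 2, those of Ms4a4a and Ms4a6c, against 20.73%. In Ms4a4a a pair of overlapping matches begins at positions -247 and -246, and in Ms4a6c the match begins at position -189. None of the 8 held the PU.1 letters GAGGAAGT (3.202% of all promoters), the interferon-stimulated response element (3.443%) or the C/EBP letters TTGCNNAA (10.8%). These matches are descriptions of letters, and binding was not measured.

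The Ms4a6 genes covered a range of levels. Ms4a6c (ENSMUSG00000079419.4, chr19:11469366-11482192, plus strand) had 164, 113 and 127 TPM in replicates 1, 2 and 3 (135 ± 26.0, SD, n = 3). Ms4a6b (ENSMUSG00000024677.13, chr19:11516512-11531256, plus strand) had 112, 119 and 57.1 TPM (96.0 ± 33.8). Ms4a6d (ENSMUSG00000024679.10, chr19:11586604-11604849, minus strand) had 30.6, 35.4 and 18.8 TPM (28.3 ± 8.52). In these RSEM-layout values replicate 3 was the lowest library for Ms4a6b and Ms4a6d, but not for Ms4a6c, where replicate 2 was lowest. In kallisto-layout TPM Ms4a6d had 72.8, 92.5 and 76.7, with replicate 1 lowest. On aligned coding sequence Ms4a6b was 80.1% identical to Ms4a6d and 74.7% identical to Ms4a6c.

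The promoters of Ms4a6b and Ms4a6c are shown because these nearby paralogs share sequence there as well. Both are printed on the plus strand from RefSeq (GRCm38.p6), chr19:11518309-11518558 and chr19:11469118-11469367, and capitals mark the longest run of bases common to both.
Ms4a6b: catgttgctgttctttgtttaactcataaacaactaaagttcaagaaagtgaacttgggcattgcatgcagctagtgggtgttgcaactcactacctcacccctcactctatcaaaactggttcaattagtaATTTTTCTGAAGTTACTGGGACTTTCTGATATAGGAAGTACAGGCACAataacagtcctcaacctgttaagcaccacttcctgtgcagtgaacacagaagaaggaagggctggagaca
Ms4a6c: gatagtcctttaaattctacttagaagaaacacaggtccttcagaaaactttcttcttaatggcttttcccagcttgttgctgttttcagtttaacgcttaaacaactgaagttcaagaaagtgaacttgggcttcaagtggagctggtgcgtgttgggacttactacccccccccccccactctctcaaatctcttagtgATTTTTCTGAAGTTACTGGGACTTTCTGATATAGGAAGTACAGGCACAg
The run is 48 bases long and begins at position -118 from the start site in Ms4a6b and at position -49 in Ms4a6c. Exon 2 of the protein-coding model Ms4a6b-205 (chr19:11518453-11518674) overlaps the Ms4a6b window. Part of the run in Ms4a6b thus lies in an annotated exon. Over the aligned part of the windows, 149 of 175 columns were identical.

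Among the Ms4a4 genes, Ms4a4c (ENSMUSG00000024675.19, chr19:11404770-11427246, plus strand) had 183, 75.8 and 62.0 TPM in replicates 1, 2 and 3 (107 ± 66.0, SD, n = 3). It had the largest spread of the 8 genes, with replicate 1 at 2.95 times replicate 3. Ms4a4a (ENSMUSG00000101389.1, chr19:11375523-11392790, plus strand) had 41.8, 35.7 and 24.8 TPM (34.1 ± 8.61), on 417, 269 and 207 counts. Its values fell within a 1.69-fold range. The relatives Ms4a4b, which is better known from T cells, and Ms4a4d had 89.2, 44.6 and 39.0 TPM and 19.7, 10.3 and 12.0 TPM, with replicate 1 highest for each, as for Ms4a4c. Among the 7 markers of T and NK cells, those with more than 3 counts were Thy1, at 0, 153 and 0 counts in replicates 1, 2 and 3, and Lck, at 1, 4 and 0.

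Ms4a8a (ENSMUSG00000024730.7, chr19:11067471-11081102, minus strand), which is known from macrophages given IL-4 and glucocorticoid, had 1 count in each library. That is under the floor of 3 counts, so that it was not detectable in the RSEM-layout tables. The kallisto-layout tables gave it 1.0, 10.2 and 10.1 counts, above the floor in replicates 2 and 3, at 0.056, 0.437 and 0.450 TPM. Of 14 other genes of such macrophages, 3 were undetected (Arg1, Chil3 and Retnla) and 3 reached 10 TPM in all libraries. Stab1, a scavenger receptor, was the highest at 523 ± 250 TPM (SD, n = 3) and Il4ra, the IL-4 receptor chain, followed at 36.4 ± 13.4. Stab1 had 383, 812 and 374 TPM in replicates 1, 2 and 3, on 21547, 28898 and 16290 counts. Its mean TPM was raised by replicate 2, where the median of 8576 protein-coding genes also lay 0.59 higher on the log2 TPM scale. The part of stromal RNA in the level of Stab1 was not tested.

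**Figure D2:**
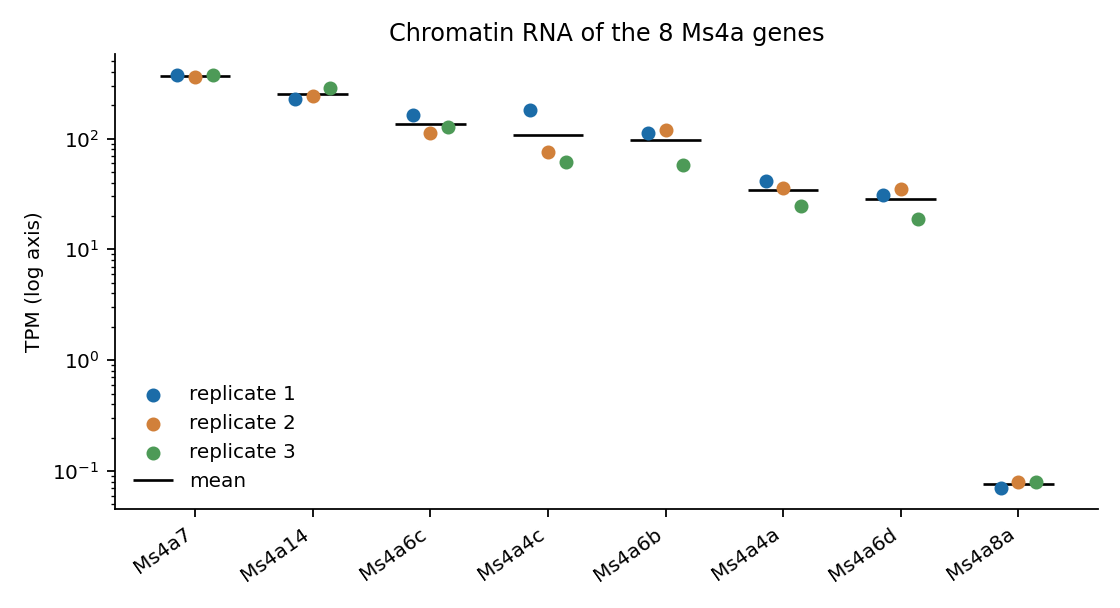
TPM of each of the 8 genes (log axis) in each library, with 1 point per replicate and a bar at the mean of 3. The 7 detected genes lie between 18.8 and 376 TPM and Ms4a8a below 0.1.

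In order of mean TPM the genes were Ms4a7, Ms4a14, Ms4a6c, Ms4a4c, Ms4a6b, Ms4a4a, Ms4a6d and Ms4a8a. The ranges over 3 libraries overlapped for 3 pairs of neighbours in that order: Ms4a6c with Ms4a4c, Ms4a4c with Ms4a6b, and Ms4a4a with Ms4a6d. The other four pairs did not overlap. The place of Ms4a4c rested on replicate 1: without it, its mean was 68.9 TPM, below Ms4a6b at 87.8. Ms4a4a was above Ms4a6d in all 3 libraries in the RSEM-layout tables but in 1 of 3 in the kallisto-layout tables. Ms4a7 and Ms4a14 together made up 53.1, 61.2 and 69.5% of the summed TPM of the 8 genes.

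The second quantification gave higher mean levels for 6 of the 7 detected genes, as it did for 69.3% of protein-coding genes with a mean of at least 10 TPM. The ratio of kallisto-layout to RSEM-layout mean TPM was 2.85 for Ms4a6d and 1.85 for Ms4a4a, against a median of 1.15 over those genes. Ms4a14 alone among the 7 was lower, at 0.797.

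Several members share sequence with other genes, and their deposited counts show reads divided between them. Of the 31-base words in Ms4a6c transcripts, 58.1% also occurred in transcripts of another gene, read on either strand, and 51.0% occurred in BE692007, a noncoding gene on the opposite strand that overlaps Ms4a6c over 12027 bases. BE692007 itself had 56.8, 55.0 and 67.4 TPM. The expected counts of Ms4a6c were fractional in every library, and adding those of BE692007 gave whole numbers (3675, 2920 and 3453, within 0.005 counts). The posterior SD of the Ms4a6c count was 15.7, 12.6 and 14.2 counts, on 1778, 1062 and 1247. With the strand setting not given, reads of Ms4a6c and BE692007 cannot be told apart with certainty, and the level of Ms4a6c is uncertain to that extent.

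Ms4a4c shared 17.1% of its words with other genes and 13.0% with Ms4a4b, to which its coding sequence was 91.7% identical. Its counts and those of Ms4a4b summed to whole numbers in the libraries where they were fractional, 3211 in replicate 1 and 1928 in replicate 3. The posterior SD there was 1.74 and 0.61 counts. Ms4a6b shared 7.90% of its words, Ms4a6d 8.11% and Ms4a7 1.42%, while Ms4a4a and Ms4a14 shared none, so that paralog reads bear least on Ms4a4a and Ms4a14. Among other neighbours, the antisense gene Gm19261 overlaps Ms4a6b by 442 bases at 1.72 ± 0.584 TPM, and the pseudogene Gm5692 overlaps Ms4a4c by 235 bases at 1.21 ± 0.241 TPM. Gm8369, between Ms4a6c and Ms4a6b, had 18.9, 20.9 and 17.5 TPM. The nearest annotated genes outside the family otherwise had mean levels of 28.2 TPM (AW112010, below Ms4a8a), 9.22 (Gm38275, below Ms4a6d), 6.23 (Gm5511, above Ms4a4c), 1.83 (4930526L06Rik, below Ms4a14), 1.13 (Gm28935, between Ms4a7 and Ms4a4a) and 0.197 (Gm336, above Ms4a8a), and Gm24599, above Ms4a6d, was at 0.

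By RSEM-layout TPM, Ms4a7, Ms4a6b and Ms4a6c had more RNA assigned to annotated retained-intron transcripts than to protein-coding ones, and Ms4a6d had less. The direction turned for Ms4a7 with kallisto-layout TPM and for Ms4a6c on expected counts. A retained-intron transcript is an annotated model that keeps all or part of an intron. In this chromatin RNA, reads in such an intron can also come from RNA not yet spliced, and these sources cannot be told apart. Of the 8 genes 5 have such a model, and Ms4a4a, Ms4a4c and Ms4a14 have none. Ms4a8a was too low to test.

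For Ms4a7, the retained-intron model Ms4a7-205 stood at 230, 255 and 269 TPM and the protein-coding models together at 141, 101 and 106. The retained-intron model was the higher class in each library, with 62.0, 71.6 and 71.7% of the gene's TPM. For Ms4a6b the classes stood at 105, 108 and 52.1 TPM against 7.22, 11.0 and 4.96. Retained-intron models thus held 93.6, 90.7 and 91.3% of its TPM. For Ms4a6c they stood at 128, 81.8 and 95.7 TPM against 35.1, 31.5 and 31.5, or 78.5, 72.2 and 75.2%. Ms4a6d had the opposite order, with 5.27, 6.29 and 1.96 TPM of retained-intron against 25.3, 29.1 and 16.9 TPM of protein-coding RNA. Exons 6 and 7 of the protein-coding model Ms4a6c-201 lie inside the BE692007-202 model, which carried 1552, 1632 and 1849 counts in replicates 1, 2 and 3. No exon of the retained-intron model Ms4a6c-202 overlaps an exon of BE692007. The part of this sharing in the class shares and ratio of Ms4a6c was not tested.

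**Figure D3:**
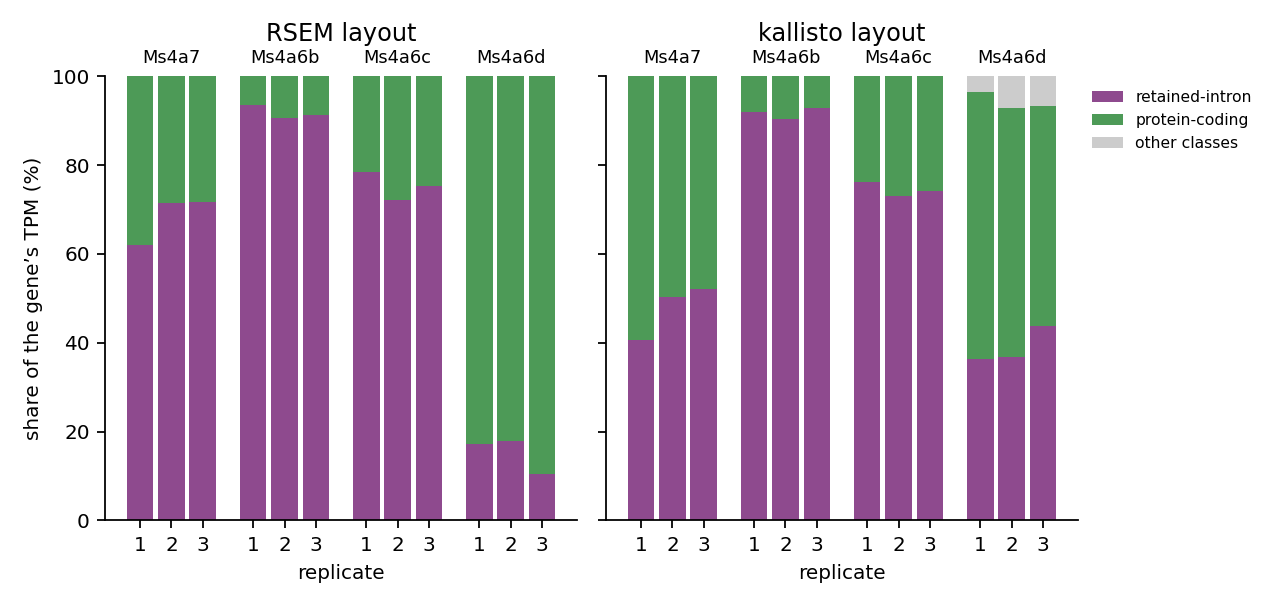
Share of each gene's TPM (%) held by retained-intron (purple), protein-coding (green) and other (grey) transcript classes in replicates 1, 2 and 3, from the RSEM-layout tables (left) and the kallisto-layout tables (right). Ms4a6b is at 90.7% or more in the retained-intron class at the left, and the classes of Ms4a7 are nearly equal at the right.

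In a limma test of the log2 ratio of both classes over 4311 genes (Benjamini-Hochberg adjustment), 24.3% of genes were higher in the retained-intron class and 25.6% in the protein-coding class, so that a call in either direction was common. Of the 4 members tested, 3 passed in the retained-intron direction and 1 in the other. The log2 ratio was 3.50 (SE 0.22, adjusted p = 0.0029, limma) for Ms4a6b, 1.61 (SE 0.21, adjusted p = 0.0072) for Ms4a6c, 1.12 (SE 0.24, adjusted p = 0.020) for Ms4a7 and -2.49 (SE 0.27, adjusted p = 0.0049) for Ms4a6d. The median over all tested genes was -0.06.

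The call for Ms4a6b had the same direction and side of the threshold under every alternative run, and the others did not. With kallisto-layout TPM the ratio of Ms4a7 was -0.14 (adjusted p = 0.609, limma), with 208, 174 and 201 TPM of retained-intron against 304, 172 and 185 TPM of protein-coding RNA. The call for Ms4a7 was also lost without replicate 2 (1.02, adjusted p = 0.0768, limma) and without replicate 3 (1.02, adjusted p = 0.108). Of the kallisto-layout protein-coding TPM, the model Ms4a7-202 held 204, 71.8 and 73.8 TPM, against 18.0, 2.35 and 2.50 TPM in the RSEM-layout tables. For Ms4a6d the kallisto-layout ratio was -0.50 (adjusted p = 0.0856). On expected counts, which are not divided by length, the ratio of Ms4a6c was -0.35 (adjusted p = 0.336). Its retained-intron model has 639 bases and its protein-coding model 1841.

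What the retained parts are differed between the genes. Ms4a7-205, of 3607 bases, keeps the last 2 introns of the gene whole, intron 5 of 6 (2021 bases, chr19:11322401-11324421) and intron 6 (716 bases, chr19:11321583-11322298). It carried 11548, 11317 and 12888 of the gene's counts. Ms4a6b-203, of 4286 bases, keeps intron 6 of 7 whole (1676 bases, chr19:11526898-11528573) and the last 79 bases of intron 5. It stood at 43.1, 53.0 and 27.4 TPM, on 2589, 2833 and 1574 counts. Ms4a6b-202 is a short model of 429 bases that ends 50 bases into intron 4, and it reached 62.0, 54.6 and 24.8 TPM on 253, 122 and 65.4 counts. Ms4a6c-202, of 639 bases, likewise ends inside an intron, 209 bases into intron 3 of 2746 bases. Ms4a6d-203, of 460 bases, begins 94 bases before the end of its intron 3. Ms4a6c-202 carried 915, 403 and 532 counts, or 51.5, 37.9 and 42.7% of the gene's counts, against 863, 659 and 715 for Ms4a6c-201, and Ms4a6d-203 carried 23.9, 16.5 and 6.0. On counts the short model of Ms4a6c was thus above the protein-coding one in replicate 1 and below it in replicates 2 and 3.

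The splice sites at the edges of the retained parts are shown because they are where the classes differ in sequence. Each is 30 bases of GENCODE M21 transcript sequence (mm10) on the gene's strand, and capitals mark the first 2 bases (GT) or the last 2 bases (AG) of the intron.
Ms4a7 intron 5, 5′ site: cggtgctatgGTaagtacttccagactgaa
Ms4a7 intron 5, 3′ site: aggcctgtgctgctttgcAGagtgctctgg
Ms4a7 intron 6, 5′ site: caaacctgggGTaagtacctgatatctgtg
Ms4a7 intron 6, 3′ site: taataaattttattctttAGggtacatttt
Ms4a6b intron 6, 5′ site: tgttctggctGTaagtatttctaaaggctg
Ms4a6b intron 6, 3′ site: ctctcttctcctgaatttAGggagtctttt
Ms4a6b intron 4, 5′ site: agctttgtttGTaagtagacttctgtgggg
Ms4a6c intron 3, 5′ site: agctttgtttGTaagtagacttctgggggg
In that order they lie at chr19:11324402-11324431, chr19:11322391-11322420, chr19:11322279-11322308 and chr19:11321573-11321602 (minus strand), and at chr19:11526888-11526917, chr19:11528554-11528583, chr19:11521796-11521825 and chr19:11472518-11472547 (plus strand). All 8 edges carry GT or AG. The 5′ sites of Ms4a6b intron 4 and Ms4a6c intron 3, after which their short models end, were identical at 29 of 30 bases. Compared position by position without gaps, the 50 intron bases in Ms4a6b-202 matched the same stretch of Ms4a6c-202 at 34. An inserted or lost base would lower that number, so that it is not an aligned identity.

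**Figure D4:**
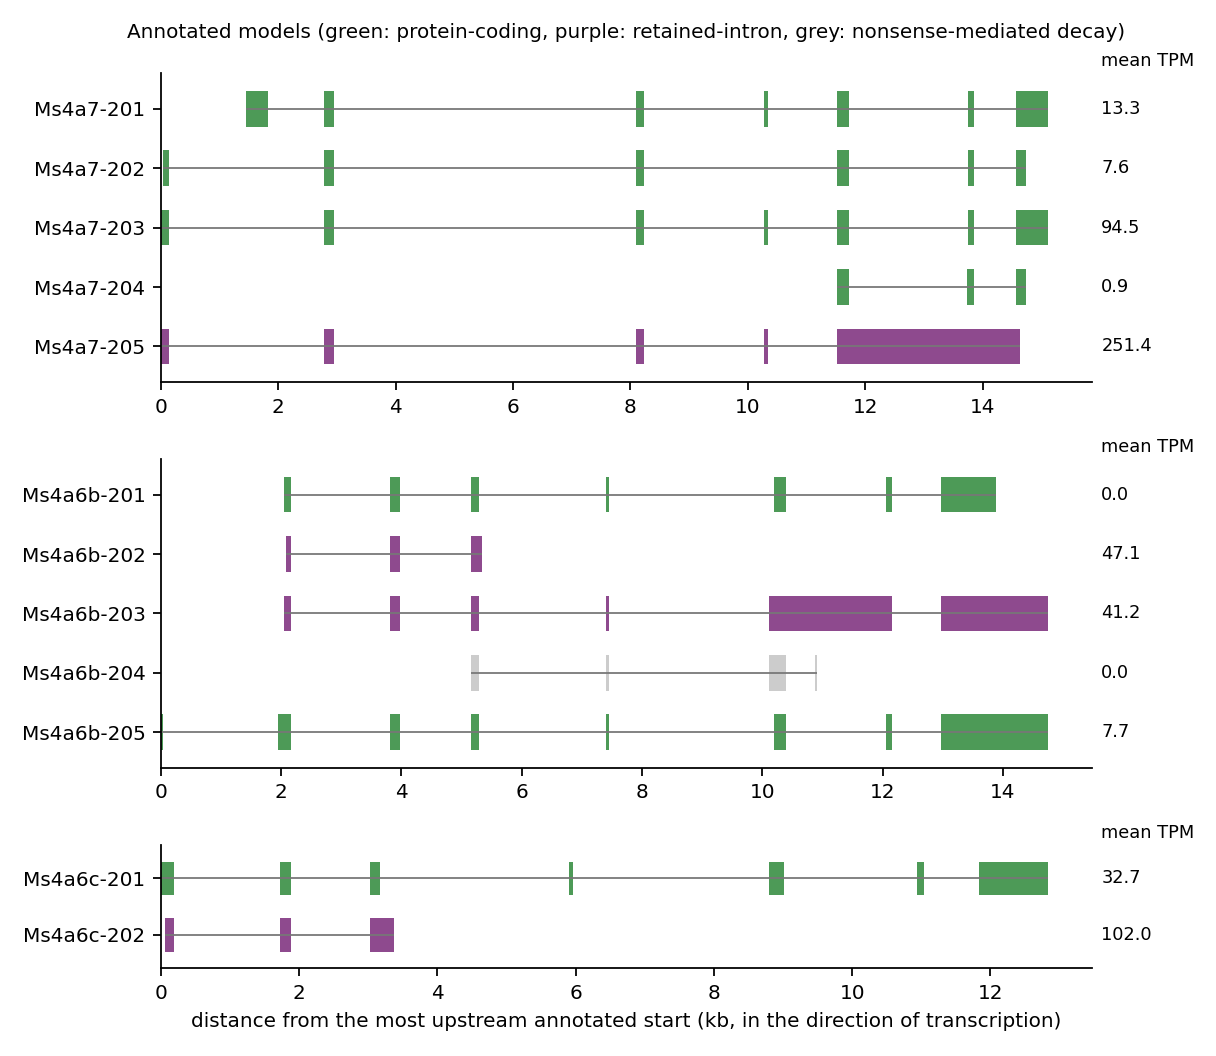
Annotated transcript models of Ms4a7, Ms4a6b and Ms4a6c by distance from the most upstream annotated start (kb, in the direction of transcription), with exons as boxes and mean TPM at the right. Ms4a7-205 (251.4 TPM) runs through the last 2 introns as 1 block, and the short models Ms4a6b-202 (47.1 TPM) and Ms4a6c-202 (102.0 TPM) end early.

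Within the protein-coding class the models also differed between libraries. Ms4a4c-203, a model of 361 bases, stood at 122, 26.3 and 20.8 TPM in replicates 1, 2 and 3, on 378, 38.9 and 36.9 counts. The longer model Ms4a4c-201 stood at 60.6, 49.1 and 41.2 TPM, on 1385, 950 and 866 counts. Both models were highest in replicate 1, by more in the short model on the TPM scale and by more counts in the long one. The effective length of Ms4a4c-203 was 213, 111 and 125 bases in replicates 1, 2 and 3, so that its counts were not divided by the same length. The part of fragment length in these differences was not tested. Ms4a7-202 was highest in replicate 1 as well, in both quantifications. Ms4a14 and Ms4a4a have 1 model each.

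The libraries were then compared on a scale that takes out their overall shift. The median of 8576 genes lay at -0.50, 0.59 and -0.10 on the log2 TPM scale in replicates 1, 2 and 3, each against the mean of the other two libraries, but within 0.02 of 0 after TMM normalisation of CPM. On the TMM-normalised scale replicate 1 was the highest library for all 7 detected genes, where 39.0% of protein-coding genes with a mean of at least 10 TPM were highest in replicate 1, 23.6% in replicate 2 and 37.4% in replicate 3. The log2 difference of replicate 1 from the mean of the other two was 1.32 for Ms4a4c, 1.25 for Ms4a4a and 1.05 for Ms4a6c. It was 0.87 for Ms4a6d, 0.77 for Ms4a6b, 0.46 for Ms4a7 and 0.36 for Ms4a14, for which replicates 1 and 3 were both at 1026 CPM. On the TPM scale Ms4a14 and Ms4a7 were highest in replicate 3, and Ms4a6b and Ms4a6d in replicate 2.

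**Figure D5:**
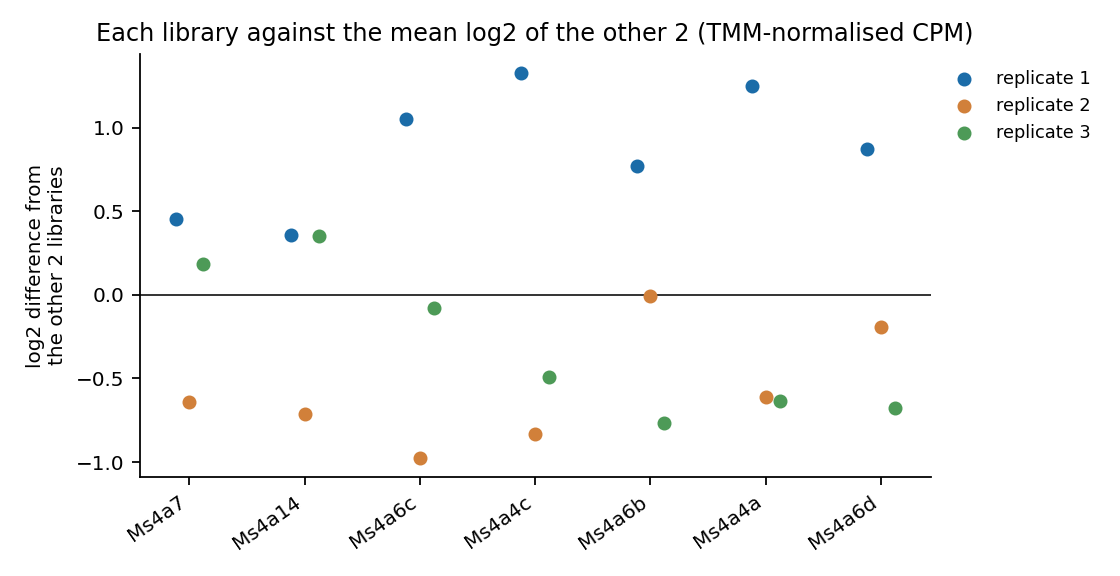
Log2 difference of each library from the mean log2 of the other two on the TMM-normalised CPM scale, for the 7 detected genes. Replicate 1 (blue) is above 0 for every gene, from 0.36 for Ms4a14 to 1.32 for Ms4a4c. Replicate 2 (orange) is below 0 for every gene, but only at -0.006 for Ms4a6b. Replicate 3 (green) is the lowest for Ms4a4a, Ms4a6b and Ms4a6d.

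The genes varied more between libraries than most genes on the TMM-normalised scale and not on the TPM scale. The median coefficient of variation over the 7 genes was 0.382 on the first scale and 0.253 on the second, against 0.195 and 0.263 over 4559 protein-coding genes with a mean of at least 10 TPM. On the TMM-normalised scale 3 genes, Ms4a4c at 0.579, Ms4a4a at 0.544 and Ms4a6c at 0.469, were above the 90th percentile of those genes, 0.419.

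No gene of the 7 passed the test for a change with the starting quantity of RNA. In an edgeR quasi-likelihood fit on log2 starting quantity (12859 genes, 1 residual degree of freedom), 0.482% of genes had a positive and 0.467% a negative slope at an adjusted p under 0.05, and 0 of 7 members did. All 7 slopes were positive, with a median of 0.36 per doubling against -0.01 over all genes. The largest was 0.71 for Ms4a4c (SE 0.22, unadjusted p = 0.0053, adjusted p = 0.208, edgeR), followed by 0.67 for Ms4a6c (adjusted p = 0.245) and 0.61 for Ms4a4a (adjusted p = 0.416). These 3 had an unadjusted p under 0.05, as did 1245 of all genes, and no member was called by DESeq2. The library of lowest quantity, replicate 2, was also the one with stromal RNA, so that quantity and cell content cannot be told apart. In simulated data of the same size, the test recovered 37.3% of genes with a slope of 1.

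The partners and relatives of these proteins outside the cluster were mostly present. Of 9 such genes 8 reached 1 TPM in all libraries, as did 8576 of 22028 protein-coding genes. In all libraries 5 of the 9 reached 10 TPM, against 16.7% of protein-coding genes. Fcer1a, the alpha chain of the IgE receptor, was undetected. Syk, a kinase downstream of Fc receptors, had 712, 673 and 763 TPM, and Fcer1g, the common gamma chain, had 203, 168 and 128 TPM. Clec7a, which encodes Dectin-1, the partner of Ms4a4a, had 3.27, 6.48 and 3.97 TPM. The B cell gene Ms4a1 had 3, 3 and 2 counts and the mast cell gene Ms4a2 1 in each library, so that neither was above the floor.

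Across the 3 libraries, the protein-coding genes whose pattern was most like that of the summed TPM of the 8 genes were Dlgap4, Fam193a and Sin3a, out of 4552 candidates. The distances, on log2(TPM + 1) centred on its mean, were 0.017, 0.019 and 0.022. Their levels were far lower than the sum, for example 46.5, 40.1 and 39.5 TPM for Dlgap4. With 3 points this likeness describes these libraries.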

How the data were processed

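Chromatin-fraction RNA of 3 libraries was analysed as 1 group. Expected counts and TPM per gene and transcript were deposited by the authors as RSEM-style tables, built on reads aligned to the mm10 transcriptome (GENCODE M21), per the file notes. A second, kallisto-style set of estimated counts and TPM was also deposited by the authors. The effective length (score) and the posterior SD of counts (score) were deposited beside them. The sources used here give no aligner, strand setting or version. Rows that name no gene (phiX, 1.94, 0.269 and 0.386% of counts in replicates 1, 2 and 3, and numeric identifiers, 18, 16 and 8 counts) were left out.

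The members, lists, tests and alternatives were chosen with earlier results of these data known. Named genes were the 8 members, family genes above 3 counts, and overlapping or nearest neighbours. Also named were the 3 genes most alike in their pattern over libraries and the 2 highest genes of each list. Ms4a1, Ms4a2, Ms4a3, Ms4a5, Ms4a12, Fcer1a, Clec7a, Xcr1, Arg1, Chil3 and Retnla were added after values were seen, as was the stretch of detected genes. Isoform classes were tested with limma 3.58.1 (R 4.3.3) on log2 ratios of summed TPM plus 0.1, for genes with both classes and a mean of at least 5 TPM (4311 of 9120). Expected counts, rounded to integers, were filtered (filterByExpr), TMM-normalised and fitted in edgeR 4.0.16 by quasi-likelihood to give slopes on log2 starting quantity; DESeq2 1.42.0 was an alternative. Adjusted p-values (Benjamini-Hochberg, threshold 0.05) run over all genes tested. Tested on simulated data, the isoform test recovered 8.96, 88.1 and 95.5% of genes at log2 ratios of 1, 2 and 4. In those data 200 of 4311 genes were changed, with 13 false calls. In the libraries themselves 1049 and 1104 genes were called in the 2 directions, and recovery with that many changed genes was not tested. Floors cover counting error only.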

Additional observations from a re-analysis of the deposited data

How the results depend on the processing

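The alternatives were another deposited quantification, other length scaling or TPM scale, other minimum levels, pseudocounts and classes, other normalisation and tools, and leaving out each replicate. For single members, 39 of 44 isoform ratios and all 35 slopes kept their direction and side of the threshold. No member's slope was past the threshold in the main fit. Levels were less stable: 23 of 56 levels of single members were classed as moved, as were 15 of 39 summary values. The summed level of the 8 genes was 1226 with kallisto-layout TPM, 2186 in CPM and 3389 with TPM rescaled to protein-coding genes, units that differ in their scale. Ms4a7 had an isoform ratio of -0.14 with kallisto-layout TPM (adjusted p = 0.609, limma), of 1.02 without replicate 2 (adjusted p = 0.0768) and of 1.02 without replicate 3 (adjusted p = 0.108). The ratio was -0.50 for Ms4a6d with kallisto-layout TPM and -0.35 for Ms4a6c on expected counts. The cause was not tested for any of these.

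Over all genes, calls for the retained-intron class were 1049, and 681 at a minimum of 20 TPM (fewer genes tested), 1810 with kallisto-layout TPM and 426 to 838 leaving out 1 replicate. Calls for the protein-coding class were 1104, and 552, 3404 on expected counts and 541 to 851. Positive slopes numbered 62, and 220 with no filter and 30 with kallisto-layout counts. Negative slopes numbered 60, and 1128, 20, 36 with DESeq2 and 33 with its size factors in edgeR; the cause was not tested. No paired analysis was possible because all libraries belong to 1 group. Leaving out a replicate was not run for slopes, since no residual degree of freedom remains.

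Ms4a8a had 1 count per library in the RSEM-layout tables, under the floor of 3, and 1.0, 10.2 and 10.1 in the kallisto-layout tables.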
